A study of Mus musculus with 12 samples.

Results

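The comparison described here sets the RNA of neurites against the RNA of somas in mouse hippocampal cultures that had received no proteasome inhibitor. It rests on 6 of the 12 libraries of the series, the 3 labelled Ctrl neurites and the 3 labelled Ctrl somas, which were chosen by these labels and not by any measured value. Cells came from the hippocampi of newborn mice, labelled as C57BL/6, and no allele or transgene is named for either group. The study's methods also name FVB mice for its cultures. The cultures were 17 or 18 days old and stood in Transwell inserts, cups with a porous membrane that lets thin processes pass and holds cell bodies back. The Ctrl cultures received DMSO, the solvent of the inhibitor MG132, so that both compartments shared this exposure. Somas were scraped off the upper face and the membrane that remained was lysed as the neurites fraction. Axons, dendrites and the processes of any other cell that crosses the pores were therefore read together, and RNA was selected by its polyA tail. The labels do not say whether replicates were separate cultures, so p-values measure a spread between libraries that may in part be technical. That spread was estimated over all 12 libraries of the series, so those of the MG132 cultures also entered it.

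RNA does not spread evenly through a neuron. Transcripts leave the nucleus bound to proteins, and motors of the kinesin and dynein families carry some of them along microtubules into dendrites and axons, where ribosomes can translate them far from the cell body. CamkIIα and β-actin mRNAs are the standard examples of dendritic mRNAs, and BC1 is the standard example of a dendritic noncoding RNA. Transcripts of the mitochondrial genome travel inside the organelle, and several long noncoding RNAs are held at chromatin or in nuclear bodies.

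The 6 libraries held 5750510 to 10052321 counted reads each, with 14491 to 17696 genes that had at least 1 read. A single gene, Entrez 100861531, to which the annotation used here gives no symbol, took 12.4% to 24.97% of the counts of the somas and 18.9% to 24.3% of those of the neurites. Mitochondrial ribosomal RNA took 19.2% of the counts of neurites replicate 1 and 7.87% to 9.68% of those of the other 5 libraries. The label of neurons was checked against 15 pan-neuronal markers, all of which passed the count filter, with summed levels of 1459 to 2145 counts per 1000000 reads (CPM) in the somas and 1345 to 2320 CPM in the neurites. Non-neuronal markers were expressed too. The summed level of 32 astrocyte markers was 12897 to 14574 CPM in the somas and 33478 to 37297 CPM in the neurites. Gfap alone held 1967 of the mean sum of 13541 CPM in the somas and 17794 of 34886 CPM in the neurites. For the 20 listed ependymal and motile cilium markers the summed level was 543 to 683 CPM in the somas and 212 to 375 CPM in the neurites. The part that the makeup of cells on either side of the membrane had in the results was not tested. In bulk samples such as these, fewer cells of a type and less RNA per cell cannot be told apart.

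A fold change between compartments that differ this much in content depends on how the libraries are brought to a common scale. TMM scaling, which assumes that most genes do not differ, set the median log2 ratio of neurites to somas over the 14185 tested genes at -0.04. With these factors, edgeR's quasi-likelihood test called 1452 genes higher in the neurites (10.2% of those tested) and 659 lower (4.65%), at a Benjamini-Hochberg adjusted p under 0.05. Of these 2111 calls, 962 of the higher and 384 of the lower genes differed at least 2-fold, and 99.95% of all calls had the same direction in each of the 3 same-numbered pairs of compartments. Libraries did not overlap between the compartments for 17.8% of the tested genes with the neurites higher and for 15.9% with the somas higher. A block for the replicate number called 1941 (13.7%) higher and 1316 (9.28%) lower, and DESeq2 in place of edgeR called 1639 (11.6%) and 1172 (8.26%). Scaling to total counts moved the median by -0.66, to a value of -0.70, and left 324 genes (2.28%) higher and 2736 (19.3%) lower. Thus 68.8% of the calls were toward neurites with TMM and 10.6% with total counts. With upper-quartile factors this share was 56.7%, and with DESeq2 size factors 64.3%. Taking the mitochondrially encoded RNAs, ribosomal RNA included, and the most abundant gene out of the totals still gave a median of -0.50. With these totals 715 genes were higher and 2832 lower. All directions below are therefore relative to the median tested gene. Counts of calls within a list are to be read against the share of all genes called under the same setting. In the main fit these shares were 10.2% higher and 4.65% lower. They were 13.7% and 9.28% with the block, 11.6% and 8.26% with DESeq2, and 2.28% and 19.3% on total counts. At an unadjusted p under 0.05 in edgeR, 2219 of the 14185 genes were higher and 1696 lower. Levels are CPM on TMM-scaled libraries, given for replicates 1, 2 and 3, a mean is followed by its SD (n = 3), and a log2 ratio by its standard error.

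**Figure D1:**
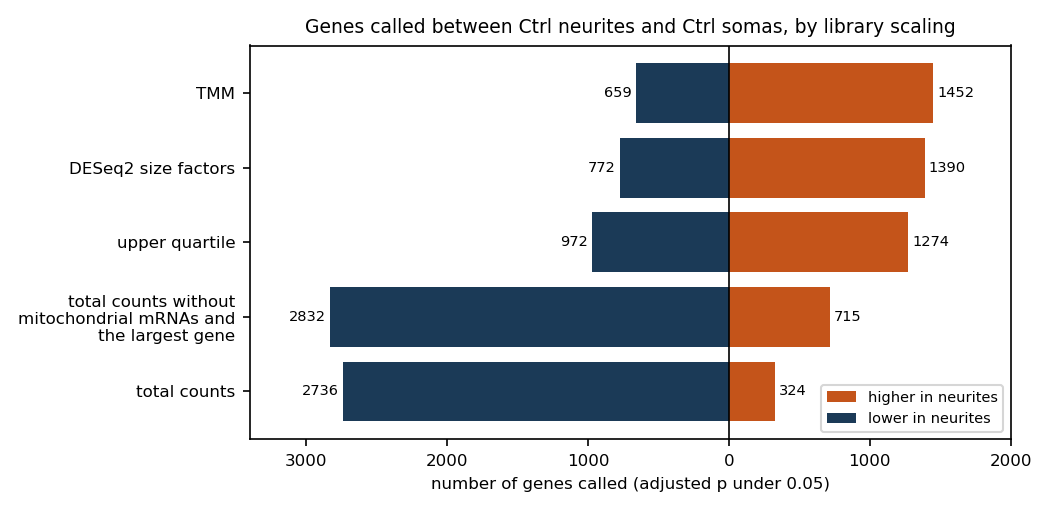
Bars to the right count the genes called higher and bars to the left those called lower in the Ctrl neurites than in the Ctrl somas, for 5 ways of scaling the libraries. The totals labelled as without mitochondrial mRNAs leave out mitochondrial ribosomal RNA as well. The number of genes toward neurites fell from 1452 with TMM to 324 with total counts, while the number toward somas rose from 659 to 2736.

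The genes that stood highest in the neurites, by the rule that named the 8 largest ratios at a mean of at least 10 CPM, came from several functions. The noncoding RNA Bc1 was at 16.9, 8.54 and 13.6 CPM in the somas and 210.1, 129 and 154 CPM in the neurites. Each neurites library stood far above all somas libraries (log2 ratio 3.65 ± 0.28, adjusted p = 1.36e-06). Pink1, the kinase that marks damaged mitochondria, was at 53.4, 55.6 and 48.9 CPM in the somas and 638, 506 and 789.9 CPM in the neurites. All 3 neurites libraries stood far above the somas (log2 ratio 3.61 ± 0.22, adjusted p = 2.11e-07). Kif1c, a kinesin motor, was at 54.2, 46.5 and 56.3 CPM in the somas and 572, 502 and 807 CPM in the neurites (log2 ratio 3.58 ± 0.21, adjusted p = 1.85e-07). Cyb5r3, a cytochrome b5 reductase of mitochondrial and ER membranes, was at 47.6, 65.3 and 63.1 CPM in the somas and 634, 858 and 983 CPM in the neurites (log2 ratio 3.81 ± 0.34, adjusted p = 3.47e-06). Rflnb, a filamin-binding regulator of actin, was at 28, 29.8 and 24.4 CPM in the somas and 275, 360.1 and 389 CPM in the neurites (log2 ratio 3.64 ± 0.36, adjusted p = 7.79e-06). For these genes each neurites library stood above every somas library. Maff, a small Maf transcription factor, went from 2.32 ± 0.721 to 45 ± 18.2 CPM (log2 ratio 4.30 ± 0.42, adjusted p = 6.62e-06). Ccnd1, the G1 cyclin D1, went from 98.7 ± 43.9 to 1160.5 ± 645 CPM, with the highest value of each compartment in replicate 2 (log2 ratio 3.56 ± 0.66, adjusted p = 0.00161). The largest ratio belonged to 2900052N01Rik, an RNA without a name by function, at 1.45, 4.21 and 0.772 CPM in the somas and 50.3, 57.7 and 75.5 CPM in the neurites (log2 ratio 4.85 ± 0.76, adjusted p = 0.000431). Each of these 8 genes was also called on total counts, with log2 ratios of 2.92 to 4.18 on that scale, and with any of the 6 libraries left out.

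The 8 genes that stood lowest in the neurites by the same rule included 3 for axonemal dyneins. Dnah11, Dnah12 and Dnah10 encode heavy chains of the dynein that bends cilia. Dnah11 was at 45.1, 42.7 and 29.6 CPM in the somas and 7.14, 7.49 and 6.39 CPM in the neurites, with no overlap between the groups (log2 ratio -2.48 ± 0.25, adjusted p = 8.23e-06). Dnah12 went from 30.4 ± 7.66 to 6.73 ± 3.6 CPM (log2 ratio -2.22 ± 0.40, adjusted p = 0.00135), and Dnah10 from 20.2 ± 6.78 to 3.09 ± 0.619 CPM (log2 ratio -2.69 ± 0.46, adjusted p = 0.00083). Ttc21a, an intraflagellar transport protein, went from 30.8 ± 3.63 to 5.28 ± 2.81 CPM (log2 ratio -2.50 ± 0.36, adjusted p = 0.000214). Ttll3, a tubulin glycylase, went from 26 ± 5.31 to 3.02 ± 2.03 CPM (log2 ratio -3.03 ± 0.50, adjusted p = 0.00067), but its annotated span overlaps Arpc4 by 1188 bases, so that its reads are uncertain. Cdhr4, a cadherin-related protein, had a log2 ratio of -2.57 ± 0.40 (adjusted p = 0.000358), with 40.9% of the 75-base windows of its transcript shared with other genes. Dsc3, a desmosomal cadherin, was at 38.4, 23.8 and 38.9 CPM in the somas and 6.09, 5.93 and 3.87 CPM in the neurites (log2 ratio -2.67 ± 0.41, adjusted p = 0.000378). Col6a5, a collagen VI chain, was at 88.9, 42.8 and 135 CPM in the somas and 16.4, 4.81 and 12.4 CPM in the neurites (log2 ratio -3.03 ± 0.79, adjusted p = 0.0172). Its call was lost without neurites 2 or 3 or somas 3 (adjusted p = 0.051 to 0.0686), while the other 7 calls held with each library left out.

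**Figure D2:**
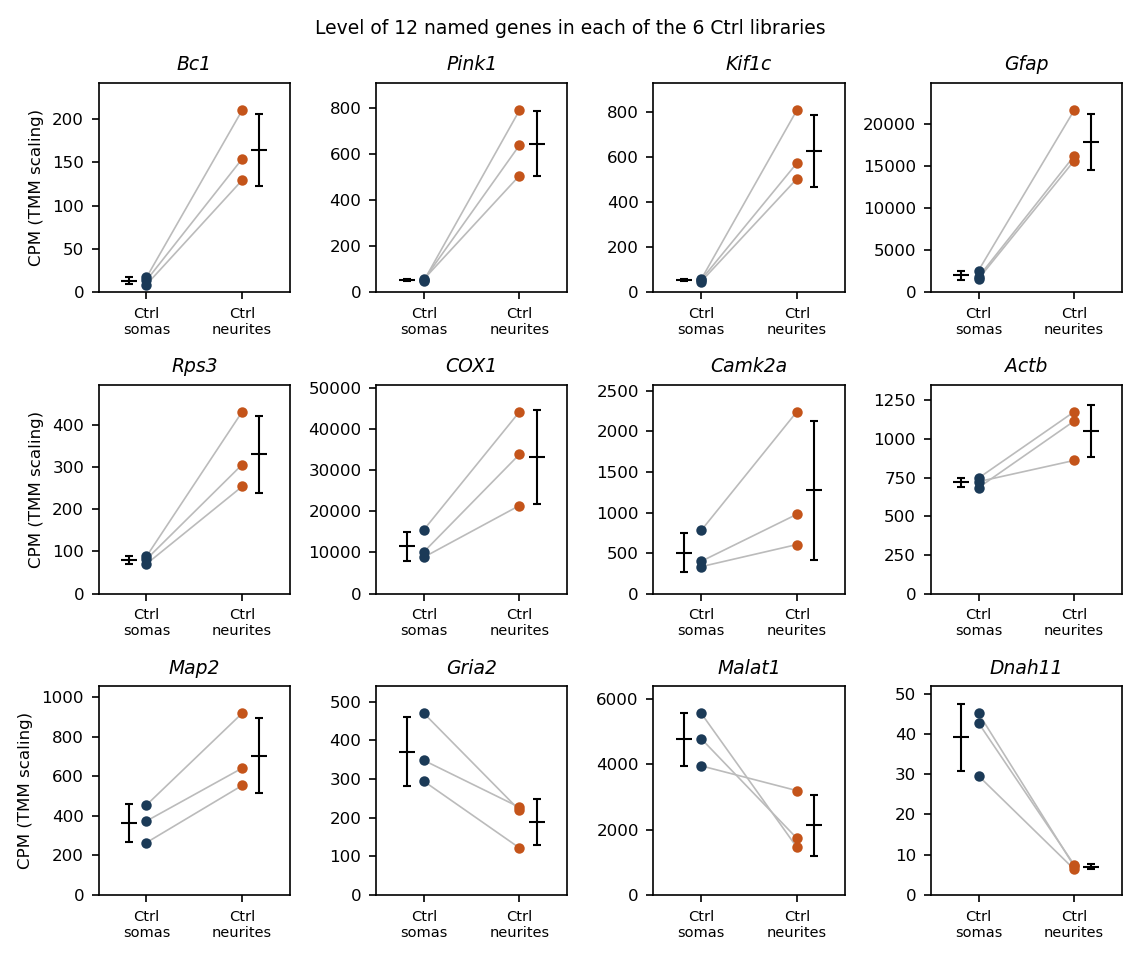
Each panel shows the level in CPM of 1 gene in the 3 Ctrl somas (blue) and 3 Ctrl neurites libraries (orange), with grey lines joining libraries of the same replicate number and black marks for the mean and SD. Bc1, Pink1, Kif1c, Gfap, Rps3 and COX1 were higher in every neurites library, and Dnah11 was lower, while for Camk2a the compartments overlapped, with 778 CPM in somas replicate 1 above 604 CPM in neurites replicate 2.

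Camk2a and Actb mRNAs are known to reach dendrites, and Hspa8 mRNA is the one whose localization the study followed. Camk2a, the α subunit of CaM kinase II, was at 778, 331 and 397 CPM in the somas and 2243, 604 and 978 CPM in the neurites. It was higher in the neurites within each replicate pair, but its level differed so much between replicates that the groups overlapped. The log2 ratio was 1.34 ± 0.52 (adjusted p = 0.104), and with the pairing as a block the adjusted p was 7.56e-06. Actb, which encodes β-actin, was at 724, 685 and 747 CPM in the somas and 861, 1116 and 1175 CPM in the neurites. Its groups did not overlap (log2 ratio 0.55 ± 0.18, adjusted p = 0.0575), and the block gave an adjusted p of 0.00519 and DESeq2 0.0201. On total counts its log2 ratio was -0.09, so the direction of Actb depended on the scaling. Hspa8, the constitutive HSP70, was at 135, 149 and 141 CPM in the somas and 136, 117 and 129.8 CPM in the neurites, with a log2 ratio of -0.15 ± 0.18 (adjusted p = 0.655), and 40.9% of its 75-base windows occur in other genes. On total counts Hspa8 had a log2 ratio of -0.83 (adjusted p = 0.0473).

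Among the 38 gene lists, the cytoplasmic ribosomal proteins had the highest median ratio of neurites to somas. Of 86 genes listed, 77 were tested, and 51 of them were called higher (66.2%, where 10.2% of all genes were) and 0 lower. Their median log2 ratio was 1.64, which was 1.68 above the median of all genes with TMM and 1.699 above it with total counts. On total counts 28 of the 77 were called higher and 0 lower. At an unadjusted p under 0.05, edgeR put 57 higher and 0 lower, and DESeq2 called 54 and 0. The summed level of the list was 1033 to 1236 CPM in the somas and 3137 to 4818 CPM in the neurites. Rps3, of the small subunit, was at 81.4, 70.2 and 88.1 CPM in the somas and 306.1, 254 and 432 CPM in the neurites (log2 ratio 2.05 ± 0.21, adjusted p = 1.09e-05). Rpl4, of the large subunit, was at 117, 103 and 135 CPM in the somas and 231, 277 and 418 CPM in the neurites (log2 ratio 1.38 ± 0.21, adjusted p = 0.000362), and the lowest neurites library of each gene was above the highest somas library. Copies of these genes are scattered over the genome, and a median of 24.6% of the 75-base windows of a ribosomal protein transcript occurs in other genes, so single values are uncertain. Among the 20 tested members with under 10% of such windows, 18 were called higher and the median log2 ratio was 1.66. Among the 14 with at least 50%, 9 were called and the median was 1.58.

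Ribosomal protein mRNAs are known for a run of pyrimidines that begins at a C at the very start of the transcript, the 5′ TOP motif, through which their translation responds to mTOR signalling. The sequences below show, from RefSeq on GRCm38.p6, the 10 bases before and the 20 bases from the annotated start of 6 such genes, in the direction of transcription. Capitals mark a C that lies within 10 bases of the annotated start and is followed by at least 5 bases that are C or T, and a run may reach further upstream than the bases shown. The sequences show the 4 called genes with the longest runs and the pair described above, whose windows held no such run. Rpl27a (chr7:109519185-109519214, plus strand) had a log2 ratio of 2.08, Rpl35 (chr2:39005112-39005141, minus strand) of 1.83, Rpl15 (chr14:18270967-18270996, minus strand) of 1.85 and Rpl7a (chr2:26910797-26910826, plus strand) of 1.28. The window of Rps3 is chr7:99483690-99483719 on the minus strand, and that of Rpl4 is chr9:64173377-64173406 on the plus strand.
Rpl27a: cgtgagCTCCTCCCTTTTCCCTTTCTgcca
Rpl35: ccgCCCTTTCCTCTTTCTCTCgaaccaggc
Rpl15: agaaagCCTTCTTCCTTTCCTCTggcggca
Rpl7a: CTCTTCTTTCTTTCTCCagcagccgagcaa
Rps3: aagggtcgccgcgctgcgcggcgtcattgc
Rpl4: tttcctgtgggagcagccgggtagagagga
The promoter table held 57 of the tested ribosomal protein genes, and 33 of them (57.9%) had such a run in at least 1 of their windows, searched on the sense strand only. Of 11007 tested genes with a promoter, 2607 (23.7%) did, and so did 19.2% of all 32851 promoters listed. Among the translation factors it was 11 of 50 (22%). In a count added after seeing the data, of runs whose first C lies within the window, the numbers were 30 of 57 (52.6%) ribosomal protein genes and 2395 of 11007 (21.8%) tested genes. The absence of a run in a window says only that these letters are not there.

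Translation factors moved the same way to a smaller degree. Of 63 tested, 28 were called higher and 0 lower, with a median log2 ratio of 0.44, while total counts gave 4 higher and 3 lower and a median 0.50 above that of all genes. At an unadjusted p under 0.05, 32 were higher and 0 lower, and DESeq2 called 29 and 0. Eef2, the elongation factor that moves the ribosome along, was at 307, 318 and 328 CPM in the somas and 649, 426 and 691 CPM in the neurites (log2 ratio 0.89 ± 0.18, adjusted p = 0.00395). Eif4g2, a relative of the scaffold of the cap-binding complex, was at 643, 670.4 and 581 CPM in the somas and 1059, 1167 and 959 CPM in the neurites (log2 ratio 0.75 ± 0.17, adjusted p = 0.00849), and lost its call without somas 3 (adjusted p = 0.0561). Neither was called on total counts, with log2 ratios of 0.20 and 0.08. Aminoacyl-tRNA synthetases, which charge tRNAs, had 3 called higher and 1 lower of 20, with a median of 0.12. Nars was higher (log2 ratio 0.72 ± 0.17, adjusted p = 0.00871) and Mars1 lower (log2 ratio -0.64 ± 0.18, adjusted p = 0.0262), while 4 synthetases were lower and 0 higher on total counts. Calls were lost for Nars without neurites 3 or somas 1 (adjusted p = 0.0687) and for Mars1 without neurites 2 or somas 2 (adjusted p = 0.0631 to 0.0963).

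The mRNAs of the mitochondrial genome, without its ribosomal RNA, took 3.85% to 8.18% of the counts in the somas and 7.23% to 10.0% in the neurites. The mean shares were 5.40% ± 2.41 and 8.67% ± 1.39 (SD, n = 3), a difference of 3.26 percentage points that did not pass a two-sided exact permutation test (p = 0.2, where 3 against 3 libraries allow no less than 0.1). As shares of all counts, these values use no scaling factor, and somas replicate 1 overlapped the neurites. After TMM scaling, 6 of the 8 tested mitochondrially encoded mRNAs were called higher and 0 lower, with a median log2 ratio of 1.44, and 8 were called with the pairing as a block. On total counts 0 of the 8 passed, with a median 1.38 above that of all genes. All 8 had an unadjusted p under 0.05, and DESeq2 called 7. The other 5 of the 13 genes (ATP6, ATP8, COX2, COX3 and ND4L) did not pass the count filter, and 98.7% to 99.9% of the windows of each, ATP8 excepted, occur in another gene. Of the 8 tested genes, ND3 shares 97.8% and ND4 61.5% of its windows, so their values are uncertain. The 5 tested genes with under 10% shared had a median log2 ratio of 1.43 with 4 called higher. The 2 with at least 50% also had a median of 1.43, with 1 called. COX1, a catalytic subunit of complex IV, was at 15471, 8816 and 10106 CPM in the somas and 44116, 21352 and 33794 CPM in the neurites (log2 ratio 1.53 ± 0.34, adjusted p = 0.00627), and 39.8% of its windows occur in other genes. CYTB, of complex III, was at 12065, 6441 and 6466 CPM in the somas and 32856, 15686 and 18689 CPM in the neurites (log2 ratio 1.43 ± 0.37, adjusted p = 0.0165). In both genes every neurites library was above every somas library, and replicate 1 was the highest in each compartment. The calls were lost for COX1 without somas 2 (adjusted p = 0.0549) and for CYTB without neurites 1 or somas 2 or 3 (adjusted p = 0.0696 to 0.105). Without neurites replicate 1, the library with the most mitochondrial ribosomal RNA, 4 of the 8 genes were called, where 9.21% of all genes tested were called higher and 4.16% lower.

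Nuclear genes for the respiratory chain pointed the same way. Of 77 tested, 26 were called higher and 0 lower, 70 had a ratio above 0, and the median log2 ratio was 0.71. Total counts left 1 higher and 1 lower, with a median 0.71 above that of all genes. At an unadjusted p under 0.05, 39 were higher and 0 lower, and DESeq2 called 30 and 0. Without neurites replicate 1, 19 were called higher. Cox4i1 and Cox6b1, nuclear-encoded subunits of complex IV, went from 108 ± 27.8 to 203 ± 56.9 CPM and from 75.7 ± 4.63 to 143 ± 18.7 CPM, with log2 ratios of 0.91 ± 0.22 (adjusted p = 0.0123) and 0.91 ± 0.22 (adjusted p = 0.0102). Their calls were lost for Cox4i1 without neurites 1 or somas 2 or 3 (adjusted p = 0.0563 to 0.101) and for Cox6b1 without somas 1, 2 or 3 (adjusted p = 0.0511 to 0.0741). Mitochondrial ribosomal proteins, which serve translation inside the organelle, had 7 of 76 called higher and 0 lower, with a median of 0.41. The share called higher, 9.21%, was near the 10.2% of all genes. Mrpl33 (log2 ratio 1.06 ± 0.27, adjusted p = 0.0147) and Mrpl50 (log2 ratio 0.67 ± 0.20, adjusted p = 0.0324) were the called members of highest CPM. These calls were lost for Mrpl33 without neurites 3 or somas 1 or 2 (adjusted p = 0.0601 to 0.0711) and for Mrpl50 without neurites 2 or 3 or somas 1 or 3 (adjusted p = 0.0879 to 0.187).

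**Figure D3:**
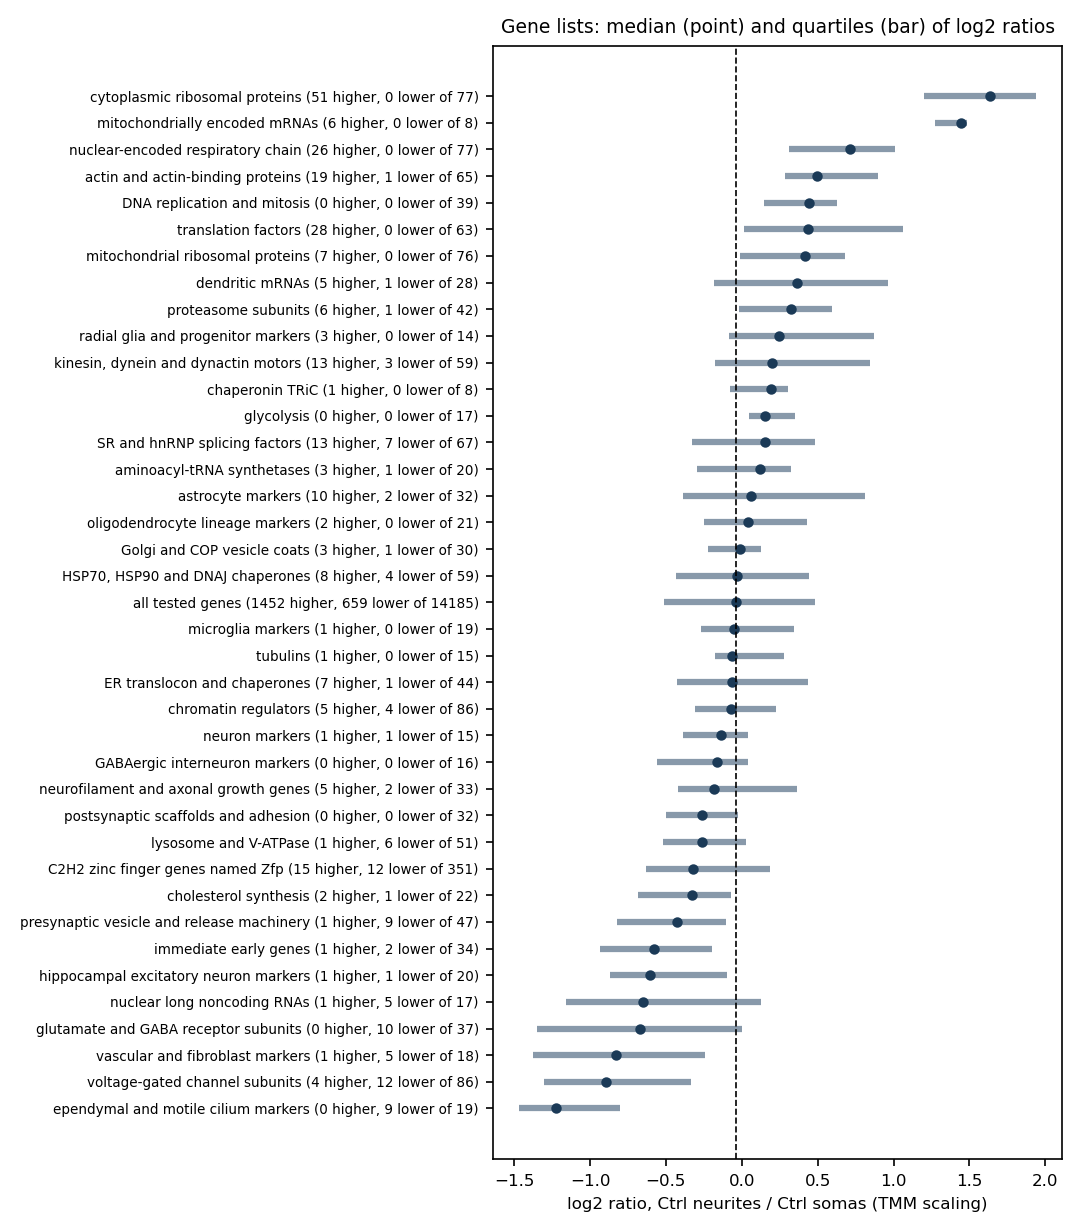
Each row is a list of genes, with the median (point) and quartiles (bar) of the log2 ratio of Ctrl neurites to Ctrl somas on TMM-scaled libraries, and with the number of tested genes called in each direction. The dashed line is the median of all tested genes. Ribosomal proteins (1.64) and mitochondrially encoded mRNAs (1.44) lay farthest to the right, and motile cilium genes (-1.23) farthest to the left.

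The motors that carry cargo along microtubules included some of the larger differences. Of 59 tested kinesin, dynein and dynactin genes, 13 were called higher (22.0%, against 10.2% of all genes) and 3 lower (5.08%, against 4.65%). The median log2 ratio was 0.20, and total counts gave 5 higher and 7 lower. Kif5b, the ubiquitous kinesin-1 heavy chain, was at 279, 211 and 276 CPM in the somas and 1322, 1159 and 1964 CPM in the neurites, with every neurites library far above the highest somas library (log2 ratio 2.54 ± 0.23, adjusted p = 3.84e-06). Kif5c, a neuronal kinesin-1, was at 566, 364 and 347 CPM in the somas and 1279, 556 and 969 CPM in the neurites (log2 ratio 1.13 ± 0.32, adjusted p = 0.0251). Its neurites library of replicate 2 lay below its somas library of replicate 1, and its call was lost without neurites 1 or 3 or somas 2 or 3 (adjusted p = 0.0968 to 0.141). Kif9 and Dync2h1, which serve cilia, were lower, with log2 ratios of -1.16 ± 0.26 (adjusted p = 0.00682) and -0.80 ± 0.24 (adjusted p = 0.0363), the latter a call lost without neurites 2 or 3 or somas 1, 2 or 3 (adjusted p = 0.0505 to 0.133).

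Actin and its binding proteins also leaned toward the neurites, with 19 of 65 called higher, 1 lower and a median of 0.49, and 29 and 1 with the block. Total counts gave 2 higher and 3 lower, with a median 0.57 above that of all genes. Cfl1, the actin-severing protein cofilin, was at 196, 204 and 214 CPM in the somas and 345, 393 and 463 CPM in the neurites (log2 ratio 0.97 ± 0.17, adjusted p = 0.0011). Msn, moesin, which ties actin to the membrane, was at 215, 291 and 309 CPM in the somas and 384, 449 and 636 CPM in the neurites (log2 ratio 0.85 ± 0.24, adjusted p = 0.0271). Wasl, an activator of the Arp2/3 complex, was the member called lower (log2 ratio -0.68 ± 0.18, adjusted p = 0.0195). Calls were lost for Msn without neurites 3 or somas 1, 2 or 3 (adjusted p = 0.0529 to 0.158) and for Wasl without neurites 1 or 3 or somas 1 or 3 (adjusted p = 0.0504 to 0.0642). Of 15 tubulins, 1 was called higher, Tubb6 (log2 ratio 1.06 ± 0.26, adjusted p = 0.0114), a call lost without neurites 3 or somas 1 (adjusted p = 0.0539 to 0.0819), and 0 were lower.

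mRNAs known from dendrites were mixed. Of 28 tested, 5 were called higher (17.9%, against 10.2% of all genes) and 1 lower (3.57%, against 4.65%). The median was 0.36, and with the pairing as a block 9 were higher and 3 lower. On total counts 1 was higher and 3 lower. Map2, the dendritic microtubule-associated protein, was at 455, 374 and 265 CPM in the somas and 918, 640.5 and 553 CPM in the neurites (log2 ratio 0.95 ± 0.26, adjusted p = 0.0241). Kif5a, a neuronal kinesin-1, was at 281, 133 and 150.4 CPM in the somas and 1271, 338 and 656 CPM in the neurites (log2 ratio 2.004 ± 0.46, adjusted p = 0.00856). The lowest neurites library of each lay above the highest somas library. Cpeb1, which regulates translation through polyA tail length, went from 27.8 ± 2.39 to 17.2 ± 3.02 CPM (log2 ratio -0.69 ± 0.20, adjusted p = 0.0325). These calls were lost for Map2 without neurites 1 or somas 2 or 3 (adjusted p = 0.0974 to 0.169), for Kif5a without somas 2 or 3 (adjusted p = 0.057 to 0.0583) and for Cpeb1 without neurites 1 or 2 or somas 3 (adjusted p = 0.0707 to 0.115). Fits with a library left out do not use the pairing. With all libraries and the pairing as a block, the adjusted p was 1.71e-05 for Map2, 9.92e-09 for Kif5a and 0.0146 for Cpeb1. Neurofilament and axonal growth genes had 5 of 33 called higher (15.2%, against 10.2% of all genes) and 2 lower (6.06%, against 4.65%). The block gave 8 and 5, and total counts 1 and 11. Cntn1, an axonal adhesion molecule, was at 441, 327 and 331 CPM in the somas and 922, 852 and 774 CPM in the neurites (log2 ratio 1.21 ± 0.18, adjusted p = 0.000225), while L1cam, another axonal adhesion molecule, was at 29, 18.4 and 22.9 CPM in the somas and 6.61, 9.84 and 5.21 CPM in the neurites (log2 ratio -1.68 ± 0.34, adjusted p = 0.00368). Cntn1 and L1cam, of the same list, thus went in opposite directions. Ank3, the ankyrin of the axon initial segment, was lower (log2 ratio -0.76 ± 0.23, adjusted p = 0.0368), a call lost without neurites 2 or 3 or somas 1 or 3 (adjusted p = 0.0501 to 0.115).

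Of 37 tested subunits of glutamate and GABA receptors, 10 were called lower (27.0%, where 4.65% of all genes were) and 0 higher, with a median log2 ratio of -0.67. Total counts gave 20 lower and a median 0.68 below that of all genes. At an unadjusted p under 0.05, and also in DESeq2, 13 were lower and 0 higher. Gria2, the AMPA receptor subunit that limits calcium entry, was at 470.3, 348 and 294.4 CPM in the somas and 219, 227 and 122 CPM in the neurites (log2 ratio -0.97 ± 0.28, adjusted p = 0.0282). Gabbr1, a GABA-B receptor subunit, was at 137, 135 and 106 CPM in the somas and 96.3, 68 and 73.7 CPM in the neurites (log2 ratio -0.67 ± 0.20, adjusted p = 0.0367). Neither gene's groups overlapped. Both calls were lost with some libraries left out, Gria2 without neurites 3 or somas 1 (adjusted p = 0.097 to 0.107) and Gabbr1 without neurites 2 or 3 or somas 1 or 2 (adjusted p = 0.088 to 0.127).

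Among 86 tested voltage-gated channel genes, 12 were called lower and 4 higher, with a median of -0.90, and the pairing as a block gave 31 lower and 4 higher. On total counts 44 were lower and 2 higher. Scn2a, an axonal sodium channel, was at 191, 128 and 116 CPM in the somas and 75.4, 51.1 and 34.6 CPM in the neurites (log2 ratio -1.44 ± 0.32, adjusted p = 0.00616). Cacnb4, a calcium channel β subunit, went from 81.2 ± 3.28 to 47.5 ± 5.47 CPM (log2 ratio -0.77 ± 0.22, adjusted p = 0.0265), a call lost without neurites 1 or 3 or somas 1 (adjusted p = 0.0542 to 0.0705). Kcnj10, an inwardly rectifying potassium channel known from astrocytes, went the other way, at 649, 667 and 534 CPM in the somas and 3004, 2225 and 2199 CPM in the neurites (log2 ratio 2.004 ± 0.36, adjusted p = 0.00142). Kcnd3, a potassium channel of the A type, was also higher (log2 ratio 1.08 ± 0.26, adjusted p = 0.0119), a call lost without somas 3 (adjusted p = 0.0774). The summed level of the list was 2516 to 3384 CPM in the somas and 3361 to 4889 CPM in the neurites, so the sum and the median differed in sign. Of the mean sums of 2805.5 CPM in the somas and 3912 CPM in the neurites, Kcnj10 alone held 617 and 2476 CPM.

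The presynaptic list of 47 genes had 9 called lower and 1 higher, with a median of -0.43, 17 and 4 with the block, and 27 and 0 on total counts. Syt1, the calcium sensor of transmitter release, was at 283, 197 and 190.0 CPM in the somas and 129.9, 87.2 and 57.2 CPM in the neurites, with no overlap (log2 ratio -1.29 ± 0.31, adjusted p = 0.0112). Syp, the vesicle protein synaptophysin, was at 299.7, 234 and 227 CPM in the somas and 208, 142 and 83.6 CPM in the neurites (log2 ratio -0.81 ± 0.26, adjusted p = 0.049). The vesicular glutamate transporter Slc17a6 had 26, 36 and 47 reads in the somas and 0, 0 and 1 in the neurites. The ratio of somas to neurites from these reads was 62.5, with a 95% interval of 10.98 to 2491 that covers counting error only. Ppfia3, a liprin of the active zone, was the member called higher (log2 ratio 1.61 ± 0.38, adjusted p = 0.00994). Leaving out a library ended the calls of Syp without neurites 2 or 3 or somas 1, 2 or 3 (adjusted p = 0.0603 to 0.144), Slc17a6 without neurites 1, 2 or 3 or somas 2 or 3 (adjusted p = 0.0539 to 0.0916) and Ppfia3 without neurites 1 or somas 2 or 3 (adjusted p = 0.0507 to 0.0631). Of 32 postsynaptic scaffolds and adhesion proteins, 0 were called in either direction with edgeR, where 2 higher and 6 lower had an unadjusted p under 0.05. DESeq2 called 1 and 1, and the block 3 and 4. The median was -0.26, and Sorbs2, the member of highest CPM, was at 172, 212 and 168 CPM in the somas and 177, 218 and 223 CPM in the neurites (log2 ratio 0.17 ± 0.16, adjusted p = 0.567). On total counts 13 of the 32 were lower.

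Of 17 nuclear long noncoding RNAs, 5 were called lower (29.4%, against 4.65% of all genes) and 1 higher, with a median log2 ratio of -0.65. On total counts 9 were lower and 1 higher. Malat1, which sits in nuclear speckles, was at 3944, 4774 and 5550.0 CPM in the somas and 3188, 1734 and 1457 CPM in the neurites (log2 ratio -1.16 ± 0.31, adjusted p = 0.0207). Its level in the neurites was 3188 CPM in replicate 1 and lower in the other replicates, with each below every somas library. The call was lost without neurites 2 or 3 or somas 3 (adjusted p = 0.0632 to 0.0761). Meg3 was at 788, 837 and 666 CPM in the somas and 383, 316 and 159 CPM in the neurites, with no overlap (log2 ratio -1.42 ± 0.32, adjusted p = 0.0069). Gas5, a small nucleolar RNA host with a 5′ TOP start that also leaves the nucleus, was higher at 50.5, 49.7 and 48.8 CPM in the somas and 144, 149 and 181 CPM in the neurites (log2 ratio 1.67 ± 0.17, adjusted p = 9.17e-06). The summed level of the list was 6150 to 7286 CPM in the somas and 2120 to 4369 CPM in the neurites.

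mRNAs for nuclear proteins held calls in both directions. Splicing factors of the SR and hnRNP families had 13 of 67 called higher (19.4%, against 10.2% of all genes) and 7 lower (10.4%, against 4.65%). The block gave 17 and 11, and total counts 0 and 18. Srrm2, a scaffold of nuclear speckles, went from 399 ± 36.4 to 188 ± 17.2 CPM (log2 ratio -1.09 ± 0.16, adjusted p = 0.000261), and Srsf1 from 138 ± 10.4 to 281 ± 79.4 CPM (log2 ratio 1.03 ± 0.20, adjusted p = 0.00256). Hnrnpul2 was higher (log2 ratio 1.03, adjusted p = 0.00054), and Ddx5, an RNA helicase, lower (log2 ratio -0.48, adjusted p = 0.045). C2H2 zinc finger genes had 15 of 351 called higher (4.27%) and 12 lower (3.42%), both shares below those of all genes. Their median was -0.32, with 19 and 22 under the block and with 7 and 73 on total counts. Zfp106 was higher at 122.7, 151 and 134 CPM in the somas and 473, 399 and 637 CPM in the neurites (log2 ratio 1.89 ± 0.18, adjusted p = 6.88e-06), with Zfp91 (log2 ratio 1.73, adjusted p = 2.86e-05), while Zfp871 (log2 ratio -0.81, adjusted p = 0.00848) and Zfp292 (log2 ratio -0.70, adjusted p = 0.0392) were lower. Chromatin regulators had 5 of 86 called higher (5.81%, below the share of all genes) and 4 lower (4.65%, as for all genes). The block gave 10 and 5, and total counts 0 and 28. Chd3 (log2 ratio 1.41, adjusted p = 0.000161) and Smarcc2 (log2 ratio 1.22, adjusted p = 0.000104), of remodelling complexes, were higher, and Ep300 (log2 ratio -0.53, adjusted p = 0.0326), an acetyltransferase, and Kdm3a (log2 ratio -0.76, adjusted p = 0.0264), a demethylase, lower. Of these calls, those lost with a library left out were Ddx5 without neurites 1 or 3 or somas 1 or 3 (adjusted p = 0.0666 to 0.126), Zfp292 without neurites 1 or 2 or somas 1 or 3 (adjusted p = 0.0544 to 0.145), Ep300 without neurites 1 or 2 or somas 2 (adjusted p = 0.0685 to 0.0797) and Kdm3a without neurites 1 or 2 or somas 3 (adjusted p = 0.055 to 0.0957).

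Immediate early genes, which answer synaptic activity, had 1 of 34 called higher, the Maff described above, and 2 lower, with a median of -0.58. Ier5 went from 23.2 ± 3.4 to 14.4 ± 1.56 CPM (log2 ratio -0.69, adjusted p = 0.0292) and Nptx2 from 15.8 ± 6.61 to 6.61 ± 1.85 CPM (log2 ratio -1.23, adjusted p = 0.0403). The block called 8 lower and total counts 11. Leaving out a library ended the calls of Ier5 without neurites 2 or 3 or somas 2 or 3 (adjusted p = 0.0564 to 0.0871) and Nptx2 without neurites 1, 2 or 3 or somas 2 or 3 (adjusted p = 0.0502 to 0.165).

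Chaperones of the HSP70, HSP90 and DNAJ families and the small heat shock proteins are the subject of the study. Of 59 tested without MG132, 8 were called higher (13.6%, against 10.2% of all genes) and 4 lower (6.78%, against 4.65%), with a median of -0.03, and 1 and 18 on total counts. The block called 12 higher and 10 lower. Hspa4, a nucleotide exchange factor of HSP70, was at 228, 223 and 203 CPM in the somas and 527, 444 and 545 CPM in the neurites (log2 ratio 1.21 ± 0.16, adjusted p = 8.08e-05). Hspb8, a small heat shock protein, went from 59.2 ± 6.82 to 155 ± 20.8 CPM (log2 ratio 1.39 ± 0.19, adjusted p = 0.000117). Hspa2, an HSP70 itself, was at 73.4, 50.5 and 88.4 CPM in the somas and 36, 23.4 and 27.6 CPM in the neurites, with no overlap in the other direction (log2 ratio -1.30 ± 0.31, adjusted p = 0.00998). Dnajb4, a J-domain partner of HSP70, was lower (log2 ratio -0.61, adjusted p = 0.0486). Of the 8 subunits of the chaperonin TRiC, 1 was called, Tcp1 (log2 ratio 0.71, adjusted p = 0.022). Proteasome subunits had 6 of 42 called higher (14.3%, against 10.2% of all genes) and 1 lower (2.38%, against 4.65%). Their median was 0.33, with 11 and 1 under the block and with 0 and 2 on total counts. Psmd7 (log2 ratio 0.72, adjusted p = 0.016) and Psmc3 (log2 ratio 0.58, adjusted p = 0.0462) were higher, and Psme4, an activator cap, lower (log2 ratio -0.48, adjusted p = 0.0461). Calls were lost for Dnajb4 without neurites 1, 2 or 3 or somas 2 or 3 (adjusted p = 0.0611 to 0.122), Tcp1 without neurites 2 or 3 or somas 1, 2 or 3 (adjusted p = 0.0619 to 0.149), Psmd7 without neurites 2 or 3 or somas 1 or 3 (adjusted p = 0.061 to 0.0913), Psmc3 without neurites 3 or somas 1, 2 or 3 (adjusted p = 0.094 to 0.324) and Psme4 without neurites 1 or 2 or somas 3 (adjusted p = 0.0951 to 0.134). On total counts the log2 ratio of Psmc3 was -0.09.

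Genes of the ER, the Golgi and the lysosome were read against the 10.2% of all genes called higher and the 4.65% called lower. On total counts every call in these 3 lists was toward the somas, a scale on which 2.28% of all genes were called higher and 19.3% lower. Genes for the ER translocon and ER chaperones had 7 of 44 called higher (15.9%) and 1 lower, with a median of -0.06, with 0 and 15 on total counts, and 8 each way with the block. Sec62, of the translocon, was at 205, 192 and 182 CPM in the somas and 289, 313 and 355 CPM in the neurites (log2 ratio 0.73 ± 0.15, adjusted p = 0.00456), Canx, the lectin chaperone calnexin, was at a log2 ratio of 0.60 (adjusted p = 0.0424), which was -0.05 on total counts, and Sec61a2, a channel subunit, was lower (log2 ratio -1.19, adjusted p = 0.0177). Golgi and vesicle coat genes had 3 of 30 higher (10.0%) and 1 lower, with a median of -0.01 and with 0 and 6 on total counts. Sar1a, the GTPase that starts COPII coats, was at 68.6, 75.2 and 65.4 CPM in the somas and 174, 165 and 173 CPM in the neurites (log2 ratio 1.29 ± 0.15, adjusted p = 4.15e-05), Golgb1 was higher (log2 ratio 0.83, adjusted p = 0.00944) and Sec24b lower (log2 ratio -0.62, adjusted p = 0.036). Lysosome and V-ATPase genes had 1 of 51 higher and 6 lower (11.8%), with a median of -0.27, 3 and 14 with the block, and 0 and 22 on total counts. Atp6v0a1, a membrane subunit of the proton pump, was at 223, 217 and 149 CPM in the somas and 131, 93.2 and 68.9 CPM in the neurites (log2 ratio -1.01 ± 0.23, adjusted p = 0.00874), and Atp6v1f, a soluble pump subunit, was higher (log2 ratio 1.02, adjusted p = 0.0322). Calls were lost for Canx without neurites 2 or 3 or somas 1, 2 or 3 (adjusted p = 0.0649 to 0.218), Sec61a2 without neurites 1 (adjusted p = 0.0659), Golgb1 without neurites 3 or somas 1 or 3 (adjusted p = 0.0514 to 0.0842), Sec24b without neurites 1 or 2 or somas 1 or 2 (adjusted p = 0.0576 to 0.0986) and Atp6v1f without neurites 1 or 3 or somas 1 or 2 (adjusted p = 0.0879 to 0.151).

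The metabolic lists held few calls. Of 17 glycolytic genes, 0 were called with edgeR or DESeq2 in either direction, and 1 higher and 0 lower had an unadjusted p under 0.05. The block called 2 higher and total counts 2 lower. Aldoa, aldolase A, was at 397, 295.9 and 459 CPM in the somas and 393, 285 and 557 CPM in the neurites (log2 ratio 0.10 ± 0.24, adjusted p = 0.846). Cholesterol synthesis had 2 of 22 called higher and 1 lower, with a median of -0.33, 6 lower with the block and 10 on total counts. Pmvk (log2 ratio 0.87, adjusted p = 0.0209) and Sc5d (log2 ratio 0.75, adjusted p = 0.0345), enzymes of this pathway, were higher, with calls lost for Pmvk without neurites 2 or 3 or somas 1, 2 or 3 (adjusted p = 0.0512 to 0.0996) and for Sc5d without neurites 1 or 2 or somas 1, 2 or 3 (adjusted p = 0.0826 to 0.188). Of 39 DNA replication and mitosis genes, 0 were called with edgeR or DESeq2 in either direction, while 3 higher and 0 lower had an unadjusted p under 0.05 and the block called 3 higher. The median was 0.44. Mki67, the proliferation marker, was at 19.4, 76.4 and 30.8 CPM in the somas and 26.2, 111 and 28.1 CPM in the neurites (log2 ratio 0.40 ± 0.83, adjusted p = 0.813), with replicate 2 high in both compartments.

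Of the 32 astrocyte markers, whose sum was above, 10 were called higher (31.2%, against 10.2% of all genes) and 2 lower (6.25%, against 4.65%). Gfap, the intermediate filament of astrocytes, was at 1786, 2553 and 1562 CPM in the somas and 16176, 21600.1 and 15606 CPM in the neurites (log2 ratio 3.18 ± 0.36, adjusted p = 2.28e-05). Slc1a2, the glial glutamate transporter, was at 1611, 1324 and 1356 CPM in the somas and 3108, 2235 and 3301 CPM in the neurites (log2 ratio 1.01 ± 0.22, adjusted p = 0.00506). In contrast, Gja1, the astrocytic gap junction protein, was at 176, 132 and 152 CPM in the somas and 104, 68 and 46.1 CPM in the neurites (log2 ratio -1.08 ± 0.23, adjusted p = 0.00512), and Atp1b2, an astrocytic sodium pump subunit, was at 638, 573 and 569 CPM in the somas and 429, 386 and 277 CPM in the neurites (log2 ratio -0.70 ± 0.18, adjusted p = 0.0174). The median log2 ratio of the list was 0.06, near that of all genes, and members of the same list went both ways. On total counts 3 astrocyte markers were higher and 6 lower. Chosen after their values were seen, Apoe (log2 ratio 0.14, adjusted p = 0.799) and Slc1a3 (log2 ratio -0.09, adjusted p = 0.783), further astrocyte markers, were not called.

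Radial glia and progenitor markers summed to 1953 to 2770 CPM in the somas and 4542 to 6508 CPM in the neurites. Of the mean sum of 5682 CPM in the neurites, Nes alone held 2775 CPM. Of 14 tested, 3 were called higher (21.4%, against 10.2% of all genes) and 0 lower, and 5 and 0 under the block. The median log2 ratio was 0.24, with 10 ratios above 0 and 4 below. Eomes and Hes5 did not pass the count filter. Nes, the intermediate filament nestin, was at 188, 359.9 and 246.4 CPM in the somas and 2134, 2925 and 3265 CPM in the neurites (log2 ratio 3.39 ± 0.34, adjusted p = 8.23e-06). Ddah1 was higher too (log2 ratio 1.44 ± 0.20, adjusted p = 0.000117). Oligodendrocyte markers summed to 2408 to 8998 CPM in the somas and 6668 to 25138 CPM in the neurites. Of the mean sum of 15728 CPM in the neurites, Mbp alone held 11394 CPM. Of 21 tested, 2 were called higher (9.52%, against 10.2% of all genes) and 0 lower, and 4 and 0 under the block. The median log2 ratio was 0.04, near that of all genes, with 12 ratios above 0 and 9 below. Mbp, myelin basic protein, an mRNA known to be carried into oligodendrocyte processes, was at 1284, 497 and 2846 CPM in the somas and 11555, 3714 and 18913 CPM in the neurites. Replicates differed widely within a compartment, while the neurites were higher in each pair (log2 ratio 2.89 ± 0.89, adjusted p = 0.0401). With the pairing as a block the adjusted p was 3.04e-10, and without it the call was lost without neurites 1 or 3 or somas 1 or 2 (adjusted p = 0.0671 to 0.142). Bcas1, of young oligodendrocytes, was higher (log2 ratio 1.63 ± 0.39, adjusted p = 0.0109).

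Microglia markers summed to 1763 to 2455 CPM in the somas and 1577 to 2865 CPM in the neurites, with 1 of 19 called higher, Aif1 (log2 ratio 2.29 ± 0.72, adjusted p = 0.0442), whose call was lost without neurites 2 or 3 or somas 1, 2 or 3 (adjusted p = 0.0547 to 0.244) and in DESeq2 (adjusted p = 0.075). The block called 3 microglia markers higher and 2 lower. Vascular and fibroblast markers had 1 of 18 tested called higher and 5 lower, with a median of -0.83, while the endothelial markers Cdh5, Cldn5, Pecam1 and Tek and the pericyte marker Kcnj8 did not pass the count filter. Col1a1, a fibrillar collagen, was at 75.5, 59.1 and 57.6 CPM in the somas and 27, 11.7 and 13.3 CPM in the neurites (log2 ratio -1.91 ± 0.29, adjusted p = 0.000359), and Col3a1 was lower (log2 ratio -1.38 ± 0.37, adjusted p = 0.0198), a call lost without somas 2 (adjusted p = 0.0703). Sparc, a matrix protein that astrocytes also make, was at 272, 355 and 252 CPM in the somas and 2218, 1802 and 2559 CPM in the neurites (log2 ratio 2.90 ± 0.22, adjusted p = 1.08e-06), so that the summed level of the list, 1148 to 1301 CPM in the somas and 2508 to 3412 CPM in the neurites, went against the sign of its median. Ependymal and motile cilium markers had 9 of 19 called lower (47.4%) and 0 higher, with 10 and 0 at an unadjusted p under 0.05 and in DESeq2. Their median was -1.23, and on total counts it was 1.24 below that of all genes. Rsph4a, of the ciliary radial spoke, was at 76.4, 68.8 and 58.2 CPM in the somas and 29.9, 22.9 and 23 CPM in the neurites (log2 ratio -1.43 ± 0.22, adjusted p = 0.000435), and Cfap54 was lower (log2 ratio -0.89 ± 0.23, adjusted p = 0.0172), a call lost without neurites 2 (adjusted p = 0.0684).

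Neuronal markers had 1 of 15 called higher, the Map2 above, and 1 lower, Syt1, with a median of -0.13 and with 3 lower under the block. Hippocampal excitatory markers had 1 of 20 higher, Zbtb20 (log2 ratio 1.11 ± 0.27, adjusted p = 0.0124), a call lost without neurites 1 or somas 2 or 3 (adjusted p = 0.0528 to 0.0819), and 1 lower, the Slc17a6 above, with a median of -0.61 and with 2 and 4 under the block. GABAergic markers had 0 of 16 tested called in either direction with edgeR, with 1 lower at an unadjusted p under 0.05, while DESeq2 called 1 lower and the block 3. Gad1, which makes GABA, was at 55, 113 and 56.6 CPM in the somas and 32.8, 45.1 and 20.7 CPM in the neurites (log2 ratio -1.18 ± 0.38, adjusted p = 0.0508), with an adjusted p of 0.000112 with the block and 0.0179 in DESeq2.

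Transcript length went with the ratio. Tested genes were split by length into 5 groups of near equal size. The shortest group, with median annotated transcripts of 102 to 1142 bases, had a median log2 ratio of 0.19, with 14.0% called higher and 2.22% lower. The longest group, from 3948 bases, had a median of -0.20, with 10.1% higher and 9.35% lower. Across 13474 genes Spearman's rho was -0.18, a description across genes, which are not independent replicates. For the ribosomal proteins, other genes in the list's range of lengths (10th to 90th percentile, 488 to 1192 bases) had a median of 0.16, and the list 1.64. For the respiratory chain the values were 0.71 for the list and 0.15 for 3300 other genes in its range. Voltage-gated channel genes are long, and had a median of -0.90, against -0.13 for 8012 other genes in their range. For the receptor subunits the values were -0.67 and -0.13, and for the motile cilium genes -1.23 and -0.06.

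**Figure D4:**
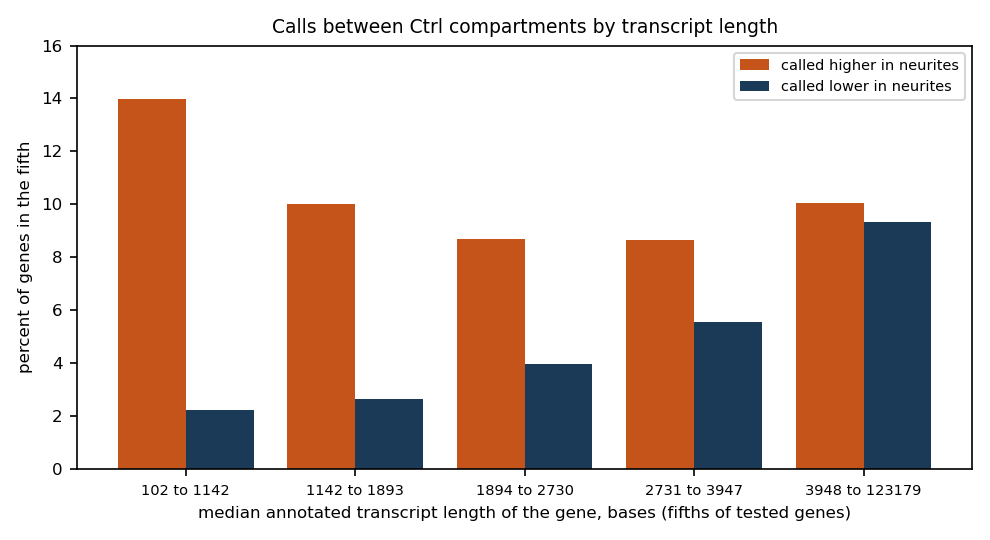
Tested genes are split into 5 groups of near equal size by the median length of their annotated transcripts in bases, and bars give the percentage of each group called higher (orange) or lower (blue) in the Ctrl neurites. The share called lower rose from 2.22% in the shortest group to 9.35% in the longest, while the share called higher was 14.0% in the shortest and 8.65% to 10.1% in the others.

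The MG132 cultures gave the same contrast in 6 other libraries, fitted together with the Ctrl libraries, from cultures that received the proteasome inhibitor MG132 (10 μM) during 7 h. Between MG132 neurites and MG132 somas 1615 genes were called higher (11.4%) and 901 lower (6.35%), with 300 and 4336 on total counts and 2142 (15.1%) and 1660 (11.7%) with the block. Of the 1452 genes higher in Ctrl neurites, 1420 (97.8%) had a ratio above 0 in the MG132 cultures, where 45.8% of all tested genes did. The calls shared were 1015, which is 69.9% of the Ctrl list and 62.8% of the MG132 list. Of the 659 genes lower in Ctrl neurites, 644 (97.7%) had a ratio below 0, and 342 were called in both, 51.9% of the Ctrl list and 37.96% of the MG132 list. There were 0 genes called in opposite directions. The ribosomal proteins had a median log2 ratio of 1.19 with 40 called higher, the mitochondrially encoded mRNAs 1.59 with 8 called, and the motile cilium genes -1.36 with 9 called lower. Astrocyte markers had a median of 0.70 in the MG132 cultures, against 0.06 in Ctrl. The test of the difference between the 2 ratios, the interaction, called 0 genes with edgeR (1000 at an unadjusted p under 0.05, smallest adjusted p = 0.328), and 47 with a larger and 43 with a smaller ratio in MG132 cultures with the pairing as a block.

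**Figure D5:**
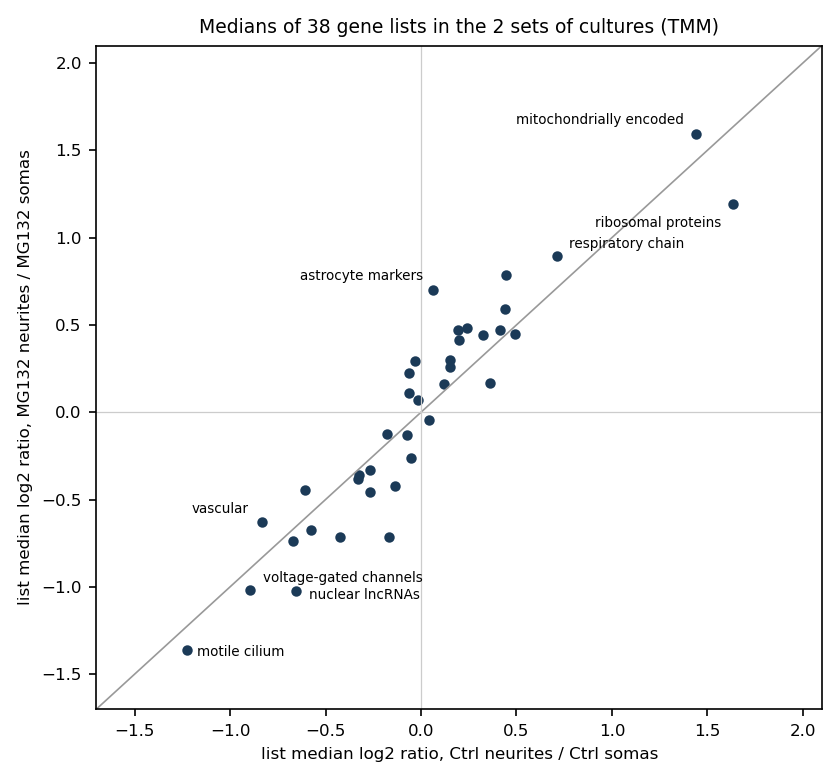
Each point is a gene list, placed by the median log2 ratio of neurites to somas of its tested members in Ctrl cultures (horizontal) and in MG132 cultures (vertical), on TMM-scaled libraries, with a grey line where both are equal. Ribosomal proteins (1.64 and 1.19) and mitochondrially encoded mRNAs (1.44 and 1.59) stood highest in both, and motile cilium genes (-1.23 and -1.36) lowest.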

How the data were processed

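RNA-seq counts of 12 libraries were used, and the comparison rests on the 6 Ctrl libraries. The files as deposited give raw counts of reads for each gene (Entrez identifiers), made by the authors. They trimmed reads with Trimmomatic 0.38.0 (quality 20 in windows of 4 bases), aligned them as single-end reads to mm10 with STAR, and counted with featureCounts 2.0.1 at default settings, as stated in the methods and in the submitters' processing notes, which also name DESeq2 2.11.40.7. No column was left unused. Symbols (93.0% of 27179 genes) and coordinates came from RefSeq (GRCm38.p6), transcripts from GENCODE M21.

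The tools were edgeR 4.0.16, DESeq2 1.42.0 and limma 3.58.1, run under R 4.3.3. After filterByExpr by group, 14185 genes were fitted over all 12 libraries as 4 group means with TMM factors, and tested by the quasi-likelihood test. The standard error is the absolute log2 ratio over the square root of F. A call is an adjusted p under 0.05. Replicate libraries were not repeats of each other, with a chi-square of 21.3 to 52.4 for each degree of freedom, and none of 66 pairs of libraries was identical. Replicate numbers pair somas with neurites, since same-numbered Ctrl libraries share a date in their names and the correlations of their deviations were 0.29, 0.26 and 0.27. The fits were tested on simulated data.

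Named genes are Camk2a, Actb and Hspa8, the 8 called genes with the largest and the 8 with the smallest ratio (mean of at least 10 CPM, same direction in 3 pairs), and in each list the 2 called genes of highest CPM in each direction, or the tested gene of highest CPM where none was called. A few genes that this rule names are not reported here. The 38 lists and the members were chosen with earlier results of these data known.

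Alternatives were DESeq2, DESeq2 size factors, upper-quartile factors, total counts with and without abundant genes, no count filter, at least 10 counts in every Ctrl library, the 6 Ctrl libraries alone, the replicate block, stricter calls, and each Ctrl library left out, where the other groups still inform the spread. The fits with a library left out do not use the pairing. The list counts under these settings, the block with DESeq2 size factors and the comparison within ranges of length were chosen after seeing the data.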

Additional observations from a re-analysis of the deposited data

Results flagged for a closer look

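For 4 of the named genes the ratio of neurites to somas differed between the Ctrl and the MG132 cultures in the interaction test with the pairing as a block, while the same test without the block called none of them (adjusted p = 0.414 to 0.484). The difference is given as the log2 ratio in MG132 cultures minus that in Ctrl cultures. For Nes, nestin, it was -1.37 (adjusted p = 0.0122 in edgeR), with log2 ratios of 3.39 in Ctrl and 2.04 in MG132 cultures. For Kif5b, the kinesin-1 heavy chain, it was -1.01 (adjusted p = 0.0158), with ratios of 2.54 and 1.5. For Hspb8, a small heat shock protein, it was -0.92 (adjusted p = 0.0316), with ratios of 1.39 and 0.47. For Canx, calnexin, it was 1.04 (adjusted p = 0.0089), with ratios of 0.60 and 1.62. The groups of 3 libraries are too small for a test of outlying libraries, and none was run.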

How the results depend on the processing

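Genes called higher in Ctrl neurites numbered 1452, and 894 at an adjusted p under 0.01, 301 with a log2 ratio beyond 1.7 as well, and 778 with a threshold of 0.5 by glmTreat. Genes called lower numbered 659, and 185, 48 and 158 under these stricter calls. Total counts gave 324 higher and 2736 lower, with the replicate block 440 and 3933. Total counts without the mitochondrially encoded RNAs, ribosomal RNA included, and the largest gene gave 715 and 2832, and also without ribosomal protein genes 717 and 2798. DESeq2 in place of edgeR called 1172 lower. The replicate block, which rests on the pairing of the compartments, called 1316 lower, with the 6 Ctrl libraries alone 1595, and with DESeq2 size factors 1502. A fit of the 6 Ctrl libraries alone without the block called 1348 higher and 555 lower. In that fit 20 named genes lost their calls, among them Canx (adjusted p = 0.0885) and Psmc3 (adjusted p = 0.117). Gad1 gained a call there (adjusted p = 0.048). Leaving out 1 library at a time gave 954 to 1358 higher and 427 to 613 lower, and the counts that moved most were those without neurites replicate 3 (954 higher), somas replicate 3 (967 higher) and somas replicate 1 (427 lower). The median log2 ratio of all genes was -0.04, and -0.0809 in DESeq2, -0.0804 with DESeq2 size factors, -0.0794 without a count filter, -0.14 with upper-quartile factors, -0.10 with the block and DESeq2 size factors, -0.50 under both totals without abundant genes, -0.70 with total counts and -0.74 with total counts and the block. It was -0.124 to -0.0340 with 1 library left out. The difference of the mitochondrial mRNA shares, 3.26 percentage points, was 2.49 to 4.65 with 1 library left out and had an exact p of 0.25 as paired differences. The MG132 contrast called 2516 genes, 4636 on total counts and 3802 with the block. The ratios of 3 named genes reversed on total counts, Eprs to -0.0822 (-0.0981 with the block), Psmc3 to -0.0898 (-0.0788) and Canx to -0.0456 (-0.0791). Eprs, a synthetase with a log2 ratio of 0.56 (adjusted p = 0.0367), also lost its call with 5 of the 6 libraries left out. Of the 59 named genes called higher, 20 were called on total counts as well, and so were all 46 called lower. Total counts moved the median log2 ratio by -0.66, toward the somas, so this comparison could hardly end a call toward the somas. Of the 105 named calls, 53 held with each library left out. The replicate block added calls for Camk2a, Actb and Gad1 and changed no other named call. The cause of these shifts was not tested beyond the scaling itself.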

Other observations

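Kif1c and Cyb5r3, which were among the genes with the largest ratios toward neurites, belong to a group of mRNAs known from the protrusions of migrating cells. Another 6 mRNAs of that group were read after these values had been seen, so their choice was not independent of the data. Rab13, a small GTPase, was at 4.77, 8.87 and 6.4 CPM in the somas and 45.2, 61.3 and 58.4 CPM in the neurites (log2 ratio 3.05 ± 0.29, adjusted p = 6.17e-06). Ddr2, a collagen receptor, was at 28.7, 29.4 and 26.7 CPM in the somas and 229, 213 and 250.2 CPM in the neurites (log2 ratio 3.03 ± 0.16, adjusted p = 1.59e-07). Net1, an exchange factor for RhoA, was at 16, 17.2 and 32.2 CPM in the somas and 110.1, 106 and 212 CPM in the neurites (log2 ratio 2.72 ± 0.33, adjusted p = 4.55e-05). In each of these the lowest neurites library stood above the highest somas library. Trak2, an adaptor of mitochondrial transport, had a log2 ratio of 2.20 ± 0.28, Dynll2, a dynein light chain, of 2.32 ± 0.22, and Pkp4, plakophilin 4, of 1.48 ± 0.24. All 6 were called with edgeR, also with each Ctrl library left out in turn (largest adjusted p = 0.00495), and 5 of the 6 on total counts, the exception being Pkp4 (adjusted p = 0.0665).

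The limits are those of 3 libraries per compartment, with a median standard error of 0.36 for a log2 ratio. Counting reads at default settings gives no use of strand, so reads of a gene and of an antisense partner cannot be told apart, and 29 of the 112 named genes overlap the span of another gene. Reads that match several genes are uncertain. No spike-in was used here, so the total RNA of a compartment is not known and each ratio is relative.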
